A study of Homo sapiens with 48 samples.

Results

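The COPII coat is the protein shell that buds transport vesicles from the endoplasmic reticulum, and 10 genes for its core parts were followed here: SEC24A, SEC24B, SEC24C, SEC24D, SEC23A, SEC23B, SEC31A, SEC13, SAR1A and SAR1B. They are 10 of the 14685 genes counted. The set was picked on measured values: SEC24D was higher under T-REX than in control cells in an earlier pass over these same counts, and the other 9 genes were added because their products form the coat with SEC24D. The difference of SEC24D between T-REX and control cells is therefore described without a test, and the list as a whole was drawn with results known. All 10 genes were found by their Ensembl identifiers at 3, 6 and 12 h, and none was lost to the filter on low counts.

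HEK293T is a human embryonic kidney line with epithelial-like growth. T-REX uses a protein fused to Halo, a self-labelling tag that binds the photocaged probe Ht-PreHNE, and light then frees the reactive lipid aldehyde HNE beside that protein. The fused protein was NCBP1, a subunit of the nuclear cap-binding complex, expressed in every arm from a transfected plasmid on top of the cells' own gene. Wild-type cells of 4 arms were collected at 3, 6 and 12 h. Each arm gave 4 libraries at a time, 48 in total, which the study describes as independent biological replicates. T-REX cells received probe and light. Probe alone cells received Ht-PreHNE and no light, and DMSO cells received the solvent with no light. The labels name the remaining control UV, called light alone here, and the study's Methods define light alone as Ht-PreHNE with light, so whether these cells had the probe is not settled. All arms share the transfection and the overexpressed NCBP1, so no arm shows untransfected cells.

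Libraries held 23952455 to 37099535 counts, and the 10 genes held 786 to 12492 counts each in any library. Values below are CPM, each count set against its library's TMM-scaled total. Of the HEK293T markers, VIM, NEFL and NEFM lay at 22.2 CPM or above in every library and KRT8 and KRT18 between 4.39 and 13.4 CPM. Markers of leukocytes (PTPRC, CD3E), hepatocytes (ALB), endothelium (PECAM1) and one fibroblast marker (DCN) were not among the counted genes, while COL1A1 lay between 2.13 and 6.07 CPM and ACTA2 between 15.0 and 39.3 CPM. NEFL was lower in T-REX and in probe alone cells than in DMSO cells at 12 h, and its part in the results at that time was not tested. In bulk RNA, fewer cells that express a gene and less of its RNA per cell cannot be told apart.

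COPII assembly begins when the small GTPase SAR1, made as SAR1A or SAR1B, is loaded with GTP by the membrane protein PREB and inserts into the endoplasmic reticulum membrane. SAR1 recruits the inner coat, a pair of a SEC23 protein (SEC23A or SEC23B, which speeds GTP hydrolysis by SAR1) and a SEC24 protein (SEC24A to SEC24D, which bind the sorting signals of cargo). The outer cage of SEC13 and SEC31A then bends the membrane into a vesicle. The SEC24 proteins differ in the cargo they select, with SEC24A and SEC24B forming one closely related pair and SEC24C and SEC24D the other. SEC24D and SEC23A are best known for the export of collagen and other large secreted proteins in skeletal tissue. CREB3L2, also called BBF2H7, is a membrane-bound transcription factor known to raise SEC23A in cartilage, and XBP1 is a transcription factor of the unfolded protein response that raises many genes of the secretory pathway.

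Promoter sequence was read to show what lies upstream of the coat genes. RefSeq windows of GRCh38.p14, from 250 bases before to 50 bases after each transcript start, were held for 9 of the 10 genes, in 14 windows. SEC24D had no entry. The core letters of the unfolded protein response element, TGACGTG, were searched on both strands and stood in 4 of these windows, those of SEC13, SEC24A and SEC23A, against 1.97% of all 35116 windows. Both SEC13 windows overlap and hold the same match, so the 4 windows show 3 separate matches. The SEC23A match spans the start itself, from position -4 to position 3. The stretches around the SEC13 and SEC24A matches are shown because they are the clearest upstream matches in the set, with the 7 matching bases in capitals and 30 bases on each side. The SEC13 stretch is chr3:10321219-10321285 on the minus strand, where the match is read on the other strand and ends 137 bases before the start, and the SEC24A stretch is chr5:134648576-134648642 on the plus strand, where it ends 173 bases before the start.
SEC13: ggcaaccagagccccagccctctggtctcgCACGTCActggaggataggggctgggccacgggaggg
SEC24A: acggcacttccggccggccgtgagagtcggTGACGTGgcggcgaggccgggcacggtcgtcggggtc
The cAMP response element TGACGTCA (in 1.85% of all windows), the letters TGATGNAA of the CEBP-ATF element (3.62%) and the endoplasmic reticulum stress response element (CCAAT, then 9 bases, then CCACG, 0.0769%) stood in no window of a coat gene. These are matches of letters, and no binding was measured.

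SEC24D was the least abundant coat transcript for its length. CPM per kilobase of exon (GENCODE 29 exon union, so a gene with long or unused exons reads low) gave SEC24D a median of 6.34 over the 48 libraries, with a range of 4.78 to 9.24. SEC31A stood highest with a median of 33.9, followed by SEC24B at 31.8 and SAR1A at 24.5. SEC23B (21.7), SEC23A (20.2), SEC24A (20.1), SEC24C (15.3), SAR1B (11.1) and SEC13 (8.77) came next. SEC23A and SEC24A were not separated, since SEC23A exceeded SEC24A in only 28 of 48 libraries, whereas SEC24A exceeded SEC24C in all 48 and SEC13 exceeded SEC24D in 47. SEC24B shares its locus with the antisense gene SEC24B-AS1, which is also in the tables. The library kit marks strand, but whether counting used it is not given in the sources used here, so the SEC24B counts may hold some antisense reads.

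SEC24D fell with time in every arm and stood above the light alone and DMSO libraries in T-REX cells at each time point. At 3 h, the T-REX libraries held 86.7, 91.7, 78.6 and 87.7 CPM of SEC24D (mean 86.2 ± 5.48, SD, n = 4). Light alone held 70.7, 67.7, 63.0 and 70.7 CPM (68.0 ± 3.64). DMSO held 65.7, 71.4, 66.8 and 72.8 CPM (69.2 ± 3.45). The T-REX libraries thus all lay above both of these groups. Probe alone, with 84.4, 85.6, 74.7 and 80.7 CPM (81.4 ± 4.89), overlapped T-REX and lay wholly above light alone and DMSO.

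At 6 h the T-REX libraries held 77.7, 89.2, 78.4 and 81.6 CPM of SEC24D (81.7 ± 5.28). Every one of them lay above all 12 control libraries. Probe alone held 62.8, 64.5, 62.0 and 66.4 CPM (63.9 ± 1.96). Light alone held 60.7, 65.2, 54.7 and 62.2 CPM (60.7 ± 4.43). DMSO held 51.6, 60.0, 53.8 and 57.2 CPM (55.6 ± 3.71). Between 3 and 6 h the control arms had moved down while the T-REX libraries stayed near their earlier level.

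At 12 h SEC24D was lower in all arms, and the order of the arms was that of 3 h. The T-REX libraries held 66.8, 59.7, 57.2 and 60.4 CPM (61.0 ± 4.10). Probe alone held 57.7, 55.7, 55.9 and 59.1 CPM (57.1 ± 1.64). These groups overlapped again. Light alone held 48.5, 52.1, 52.3 and 47.4 CPM (50.1 ± 2.49). DMSO held 48.9, 50.5, 51.6 and 51.3 CPM (50.6 ± 1.19). Light alone and DMSO overlapped each other and lay below every T-REX and probe alone library.

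**Figure D1:**
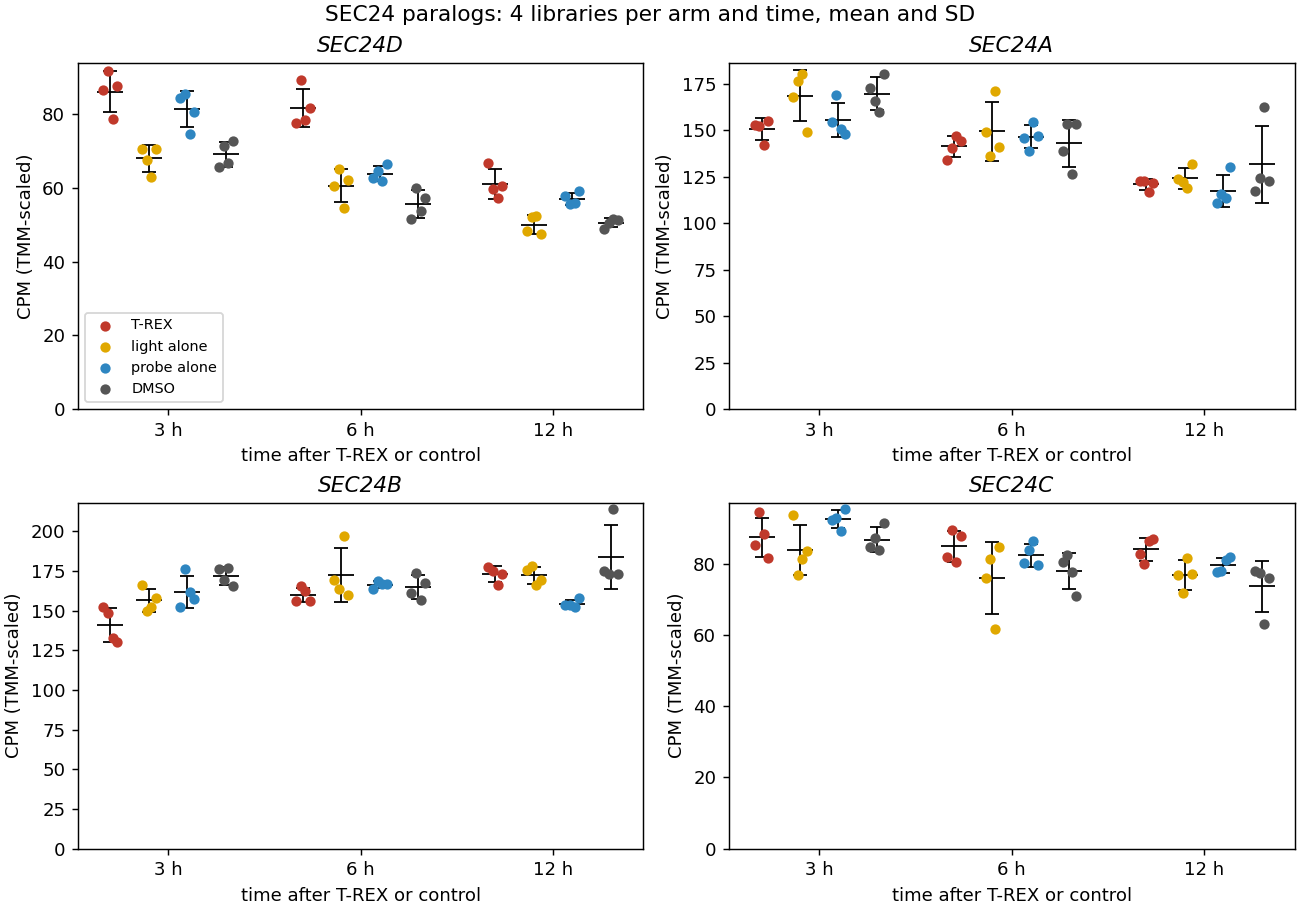
Level of the 4 SEC24 genes in CPM (vertical axis) by time in hours (horizontal axis), with 1 point per library, horizontal bars for the mean of 4 libraries and error bars for the SD. SEC24D in T-REX cells sits between 77.7 and 89.2 CPM at 6 h, above all control libraries, while SEC24A, SEC24B and SEC24C show overlapping arms at that time.

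Expressed as a difference, SEC24D was 26.6% higher in T-REX than in light alone cells at 3 h, 34.5% higher at 6 h and 22.2% higher at 12 h. Against DMSO the differences were 24.9%, 46.7% and 20.6%. Against probe alone they were 7.05% at 3 h (log2 difference 0.10, 95% interval -0.02 to 0.22), 27.8% at 6 h (0.35, 0.22 to 0.49) and 6.75% at 12 h (0.09, -0.03 to 0.21). All 3 sets share the T-REX libraries and are not independent of one another. Ranked by log2 difference among the 14685 genes, SEC24D stood at place 86 against DMSO at 6 h and at place 5117 against probe alone at 3 h. These are the values that chose the gene, and no test of them is given.

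Differences between the control arms were not the ones that chose SEC24D, but they rest on the same control libraries, so their p-values are not independent of that choice. SEC24D passed the test in none of the 9 comparisons between controls (edgeR's quasi-likelihood test, Benjamini-Hochberg adjusted across the whole table, threshold 0.05). Probe alone exceeded DMSO by 16.7% at 3 h (log2 difference 0.22, interval 0.10 to 0.34, edgeR quasi-likelihood adjusted p = 0.763), by 14.8% at 6 h (0.20, 0.07 to 0.33, 0.502) and by 13.0% at 12 h (0.18, 0.06 to 0.30, 0.0741). The probe alone libraries lay wholly above the DMSO libraries at all 3 times. Light alone lay below probe alone at 3 h by 0.24 on the log2 scale (interval of the log2 difference, light alone minus probe alone, -0.36 to -0.12, edgeR quasi-likelihood adjusted p = 0.0789), at 6 h with -0.07 (-0.21 to 0.06, 0.816) and at 12 h with -0.19 (-0.31 to -0.07, 0.135). Before adjustment, 5 of the 9 comparisons had p of 0.05 or less. The 3 h difference between light alone and probe alone did pass in DESeq2, with the replicate block, with the authors' 2 factors of unwanted variation and in the fit of these 2 arms alone. DESeq2 also called probe alone against DMSO at 12 h, and the factors of unwanted variation brought calls for probe alone against DMSO at all 3 times and for light alone against probe alone at 12 h, which the fit of those 2 arms alone called as well. Light alone and DMSO differed by -0.02 at 3 h (-0.14 to 0.10), 0.12 at 6 h (-0.01 to 0.26) and -0.02 at 12 h (-0.14 to 0.10).

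NCBP1, the targeted gene, moved with some of these differences. Its level, which sums the plasmid and the cells' own transcript, averaged 75865, 61370, 64588 and 53847 CPM at 3 h in T-REX cells, light alone, probe alone and then DMSO cells. The means were 72832, 41696, 82943 and 53742 CPM in the same order at 6 h, and 57501, 40520, 59151 and 34642 CPM at 12 h. NCBP1 was higher in T-REX than in light alone cells at 6 h by 0.80 on the log2 scale (edgeR quasi-likelihood adjusted p = 0.0214) and higher than in DMSO cells at 3 h by 0.50 (0.0290) and at 12 h by 0.73 (0.00252). Among the controls, NCBP1 was lower in light alone than in probe alone cells at 6 h (log2 difference -0.99) and higher in probe alone than in DMSO cells at 12 h (0.77), and both differences passed. The grouping of the arms for SEC24D at 12 h, with T-REX and probe alone above light alone and DMSO, was also that for NCBP1. Within each of these pairs of arms the order of the means differed between the genes. At 6 h mean NCBP1 was lower in T-REX than in probe alone cells while SEC24D was higher in every T-REX library. The part of NCBP1 level in the SEC24D differences was not tested.

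**Figure D2:**
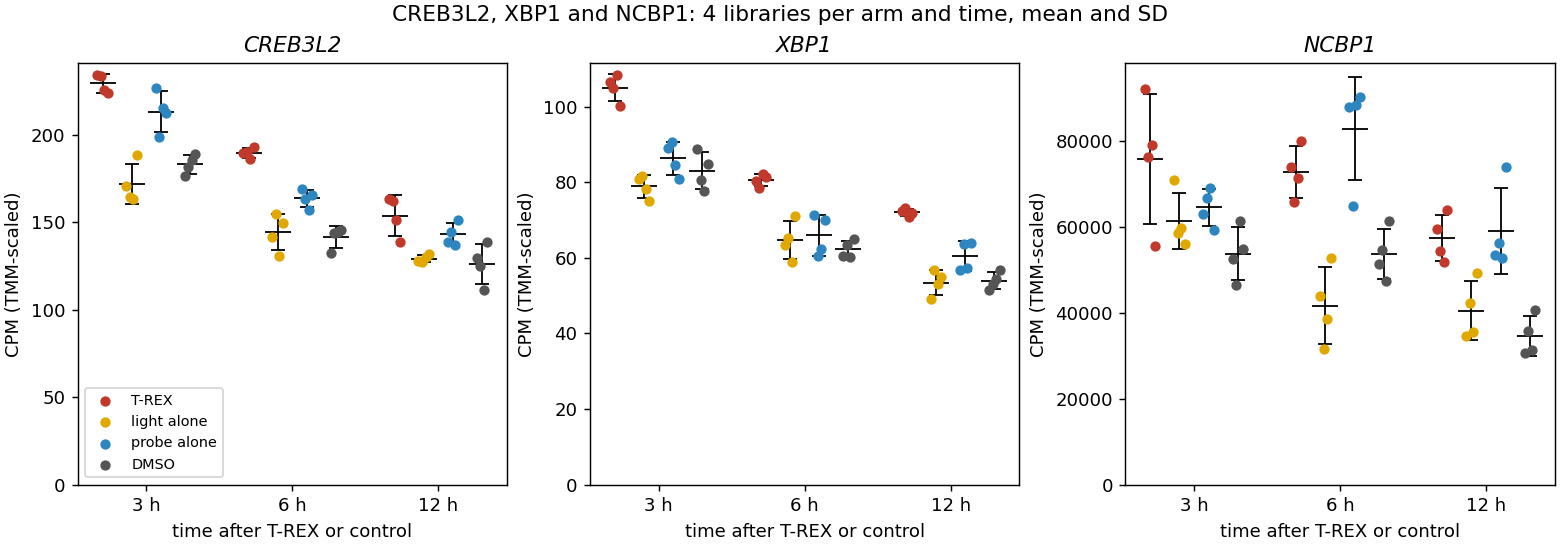
Level of CREB3L2, XBP1 and NCBP1 in CPM (vertical axes) by time in hours (horizontal axes), with 1 point per library, bars for the mean of 4 libraries and error bars for the SD. At 6 h NCBP1 averages 82943 CPM in probe alone and 72832 CPM in T-REX cells, whereas XBP1 in T-REX cells lies between 78.4 and 82.2 CPM, above every control library of that time.

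Among the 4 SEC24 genes, SEC24D made up a larger share in T-REX cells than in light alone or DMSO cells. Its share of the summed CPM per kilobase of the family was 11.9% ± 0.50 (SD, n = 4) in T-REX cells at 3 h, 10.5% ± 0.52 in probe alone, 9.03% ± 0.53 in light alone and 8.75% ± 0.41 in DMSO cells. At 6 h the shares were 11.1% ± 0.45, 8.70% ± 0.34, 8.28% ± 0.91 and 7.83% ± 0.30 in the same order. At 12 h probe alone (8.65% ± 0.19) was at the level of T-REX (8.56% ± 0.43), with light alone at 7.25% ± 0.40 and DMSO at 7.07% ± 0.42. The share uses the values that chose SEC24D and is a description.

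**Figure D3:**
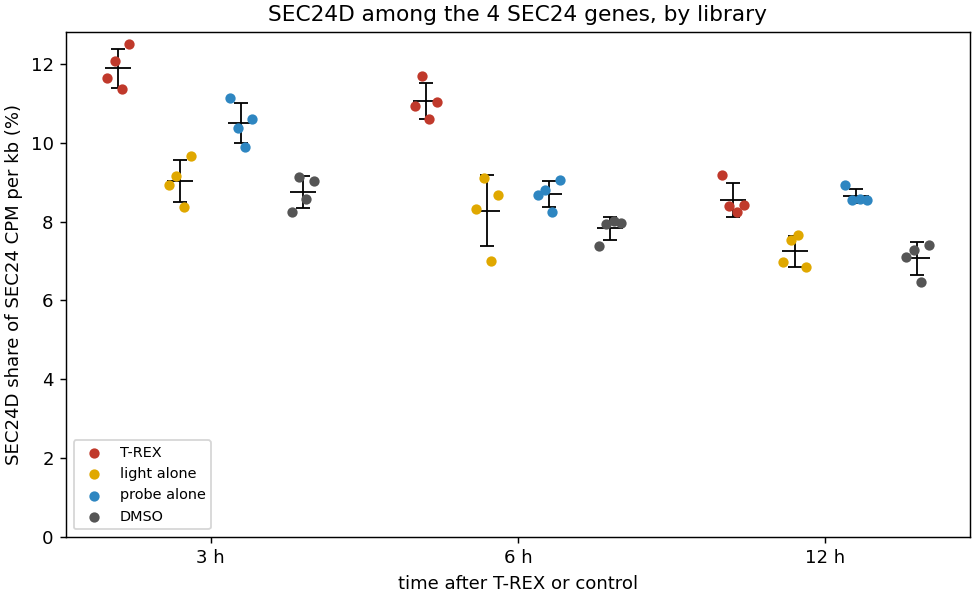
Share of SEC24D in the summed CPM per kilobase of SEC24A, SEC24B, SEC24C and SEC24D (vertical axis, percent) by time in hours (horizontal axis), with 1 point per library, bars for the mean of 4 libraries and error bars for the SD. The T-REX libraries lie between 10.6% and 11.7% at 6 h, above every control library, and between 8.23% and 9.19% at 12 h, where they overlap probe alone.

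Few of the other 9 coat genes differed between T-REX and control cells. At 3 h none of the 9 passed against light alone (0.197% of all genes passed in that comparison) or probe alone (1.05%), and 1, SEC24B, passed against DMSO (5.99%). At 6 h none passed against light alone (0.218%), probe alone (0.109%) or DMSO (0.415%). At 12 h none passed against light alone (1.29%) or probe alone (0.701%), and 2, SEC24C and SAR1A, passed against DMSO (10.9%). Before adjustment, p was 0.05 or less for 3, 1 and 3 of the 9 genes at 3 h (light alone, probe alone and DMSO as control), for 1, 0 and 0 at 6 h and for 2, 3 and 2 at 12 h. Of all 14685 genes, 2174, 2645 and 3212 had such a p at 3 h, 1711, 964 and 1826 at 6 h and 1891, 1637 and 3957 at 12 h. DESeq2 added 1 call, SEC24B against probe alone at 3 h. The median log2 difference of the other 9 genes lay between -0.08 and 0.06 over the 9 comparisons, beside medians of all genes between 0.00 and 0.03.

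SEC24B, a cargo adaptor of the other SEC24 pair, moved opposite to SEC24D at 3 h. The T-REX libraries held 152, 148, 133 and 130 CPM of SEC24B, and the DMSO libraries held 177, 169, 177 and 166 CPM. Every T-REX library lay below every DMSO library. SEC24B fell by 0.28 on the log2 scale (interval -0.40 to -0.17, edgeR quasi-likelihood adjusted p = 0.00571), which is 17.8% lower. The difference was -0.18 against probe alone (-0.30 to -0.07, 0.0905) and -0.15 against light alone (-0.27 to -0.04, 0.197), with overlapping libraries. By 12 h the SEC24B difference from DMSO was -0.09 (-0.21 to 0.03, edgeR quasi-likelihood adjusted p = 0.341), and that from probe alone was 0.16 (0.04 to 0.28, 0.255). With the authors' factors of unwanted variation as covariates, SEC24B passed against light alone, probe alone and DMSO at 3 h. The share of all genes that passed with these factors is not given, for SEC24B or for the other coat genes above and below. Calls that only these factors brought are therefore not read as results about a gene. At 12 h it passed against probe alone with these factors and in the fit of those 2 arms alone.

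SEC24A, the paralog closest to SEC24B, passed in no T-REX comparison of the main fit. With the authors' factors of unwanted variation as covariates, SEC24A did pass against light alone and DMSO at 3 h. Its 3 h libraries held 153, 153, 142 and 155 CPM under T-REX and 173, 166, 160 and 180 CPM in DMSO cells, which did not overlap. The log2 difference was -0.17 (interval -0.29 to -0.04, edgeR quasi-likelihood adjusted p = 0.101). At 6 h its differences from the 3 controls lay between -0.08 and -0.02.

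SEC24C, the paralog closest to SEC24D, was higher under T-REX than in DMSO cells at 12 h. The T-REX libraries held 82.6, 80.0, 86.5 and 86.9 CPM of SEC24C and the DMSO libraries 78.1, 77.4, 63.0 and 76.0 CPM. The groups did not overlap, and the lowest DMSO library, replicate 3, stood far from the others. SEC24C rose by 0.19 on the log2 scale (interval 0.06 to 0.31, edgeR quasi-likelihood adjusted p = 0.0462). The SEC24C call was also lost in the fit of these 2 arms alone (0.19). Without DMSO replicate 3 the difference was 0.13 and no longer passed, and it also failed in 9 other fits that left out a single library of the time point. With light alone the 12 h difference was 0.13 (0.01 to 0.26, edgeR quasi-likelihood adjusted p = 0.357) and with probe alone 0.08 (-0.05 to 0.20, 0.725). The authors' factors of unwanted variation as covariates brought SEC24C calls against light alone at 6 and 12 h. The light alone libraries at 6 h held 76.0, 81.4, 61.7 and 84.6 CPM of SEC24C, with replicate 3 lowest.

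The SEC23 genes, which pair with every SEC24 protein in the inner coat, showed no passing difference under T-REX at any time in the main fit. With the authors' factors of unwanted variation as covariates, SEC23A did pass against probe alone and DMSO at 3 h. SEC23A in DMSO and T-REX cells at 3 h averaged 191 ± 11.1 and 172 ± 11.4 CPM, a log2 difference of -0.14 (interval -0.26 to -0.03, edgeR quasi-likelihood adjusted p = 0.114). At 6 h the SEC23A means were 197 ± 14.6 CPM in T-REX, 196 ± 9.43 in light alone, 200 ± 10.6 in probe alone and 186 ± 9.89 in DMSO cells. SEC23B lay between 79.8 and 105 CPM in all libraries. Its differences from the controls ran from -0.03 to 0.10 on the log2 scale, the last against probe alone at 6 h (-0.01 to 0.22, edgeR quasi-likelihood adjusted p = 0.793).

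The outer cage genes also showed none that passed. SEC31A, the steadiest gene of the set, averaged 309 ± 7.46 CPM in T-REX cells at 6 h against 300.4 ± 6.04 in light alone, 320 ± 12.1 in probe alone and 309 ± 7.76 in DMSO cells. All its 9 differences lay between -0.05 and 0.07 on the log2 scale, and none of the intervals reached beyond -0.14 or 0.17. SEC13, which also serves in the nuclear pore, was the most variable gene, with a mean SD of 0.127 on the log2 scale within groups against 0.0409 for SEC31A. At 6 h SEC13 differed by 0.19 from light alone (-0.01 to 0.39, edgeR quasi-likelihood adjusted p = 0.448), 0.18 from probe alone (-0.02 to 0.38, 0.793) and 0.19 from DMSO (-0.00 to 0.39, 0.417). The light alone libraries at 6 h held 47.2, 54.1, 35.8 and 49.6 CPM of SEC13, with replicate 3 lowest. With the authors' factors of unwanted variation as covariates, SEC13 did pass against light alone and DMSO at 6 h and against DMSO at 12 h.

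SAR1A, the GTPase that starts the coat, was lower under T-REX at 12 h. The T-REX libraries held 128, 127, 128 and 126 CPM of SAR1A and the DMSO libraries 157, 163, 169 and 140 CPM. The T-REX libraries lay below every library of all 3 control arms. SAR1A fell by 0.31 against DMSO (interval of the log2 difference -0.42 to -0.20, edgeR quasi-likelihood adjusted p = 0.000673), which is 19.3% lower. Against light alone, with 144, 144, 141 and 146 CPM, the difference was -0.17 (-0.28 to -0.06, 0.111). Against probe alone, with 147, 133, 138 and 137 CPM, it was -0.13 (-0.24 to -0.02, edgeR quasi-likelihood adjusted p = 0.356). The call of SAR1A against DMSO was kept in all 16 fits that left out a single library, with differences from -0.36 to -0.27. The authors' factors of unwanted variation as covariates brought SAR1A calls against light alone and probe alone at 12 h and against DMSO at 3 h. The fit of 2 arms alone also called SAR1A against light alone at 12 h.

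SAR1B, the second SAR1 gene and the one known for chylomicron export, passed in no T-REX comparison of the main fit. With the authors' factors of unwanted variation as covariates, SAR1B did pass against light alone at 3 h and probe alone at 12 h. At 3 h the T-REX libraries (158, 156, 129 and 150 CPM) lay below those of light alone (159, 165, 164 and 166 CPM), with a log2 difference of -0.14 (interval -0.26 to -0.03, edgeR quasi-likelihood adjusted p = 0.228). At 12 h SAR1B differed by 0.14 from probe alone (0.01 to 0.27, 0.391) and by -0.11 from DMSO (-0.24 to 0.01, 0.243).

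**Figure D4:**
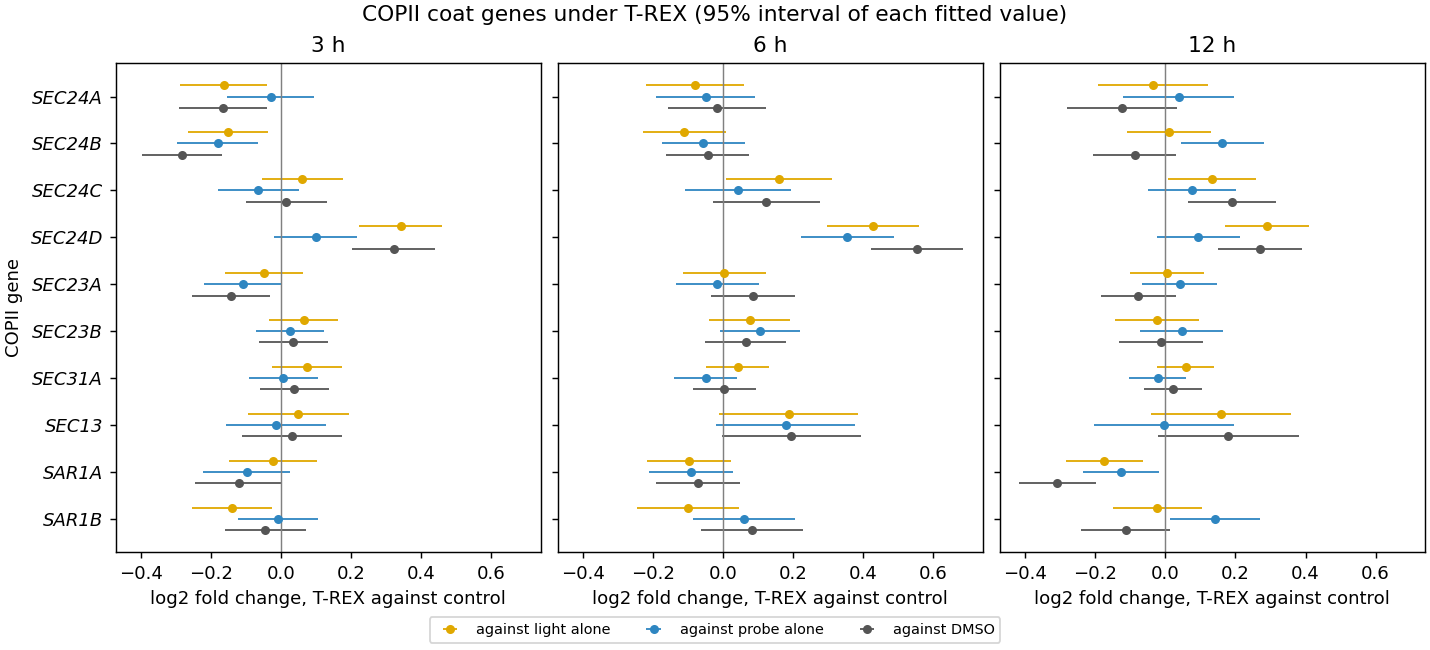
Log2 fold change of T-REX against each control (horizontal axes) for the 10 COPII coat genes (vertical axis) at 3, 6 and 12 h, with points for the fitted value and lines for its 95% interval. At 6 h the 3 SEC24D values, 0.35 to 0.55, lie to the right of those of every other gene, and at 12 h the 3 SAR1A values, -0.31 to -0.13, lie to the left of 0.

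The 10 genes were also compared among the controls, to see how far those arms differ without T-REX. None of the 10 passed for light alone against DMSO at 3 h (0.00681% of all genes), 6 h (0.00681%) or 12 h (0.0136%), for light alone against probe alone at 3 h (0.232%), 6 h (0.0613%) or 12 h (0.415%), or for probe alone against DMSO at 3 h (0.00681%) or 6 h (0.0272%). Before adjustment, p was 0.05 or less for 1, 1 and 1 genes in the first set, 4, 2 and 3 in the second and 2 and 1 in the last. Among all genes the numbers were 1143, 2109 and 1525, then 2060, 1236 and 1856, and last 751 and 1206. DESeq2 called 1 gene, SEC24D, in these 8 comparisons, for light alone against probe alone at 3 h.

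Probe alone against DMSO at 12 h gave 3 calls among the 10 genes (5.11% of all genes), each lower with the probe. The probe alone libraries held 154, 154, 153 and 158 CPM of SEC24B, below the DMSO libraries with 175, 173, 214 and 173 CPM. SEC24B fell by 0.25 (interval of the log2 difference -0.37 to -0.13, edgeR quasi-likelihood adjusted p = 0.0151). SAR1B fell by 0.25 (-0.38 to -0.13, 0.0197) and SAR1A fell by 0.18 (-0.29 to -0.07, edgeR quasi-likelihood adjusted p = 0.0460), both with overlapping libraries. SAR1A was thus lower than in DMSO cells in both T-REX and probe alone cells at 12 h, and those comparisons share the DMSO libraries. DMSO replicate 3 was high for SEC24A and SEC24B and low for SEC24C at this time. Without it the differences were -0.16 for SEC24B and -0.18 for SAR1B, which still passed, and -0.14 for SAR1A, which did not. None of the 3 passed in a fit of these 2 arms alone. SAR1A passed in only 2 of the 16 fits that left out a library, and SAR1B was lost without probe alone replicate 1, 2 or 3.

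Time changed more coat genes than T-REX did. Between 3 and 12 h, 5 of the 10 genes passed the test in every arm, with SEC24A, SEC24D, SAR1A and SAR1B lower and SEC31A higher. The calls numbered 7 of 10 in T-REX cells (41.7% of all genes), 6 in light alone (39.4%), 8 in probe alone (42.3%) and 7 in DMSO cells (38.8%). Since 38.8% to 42.3% of all genes passed, many calls among 10 genes are also what the rest of the tables gave. The median log2 change of the 10 genes from 3 to 12 h was -0.16 in T-REX, -0.21 in light alone, -0.21 in probe alone and -0.28 in DMSO cells, beside medians of all genes between -0.01 and 0.01.

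SEC24D fell by 0.50 on the log2 scale in T-REX cells from 3 to 12 h (interval -0.61 to -0.38, edgeR quasi-likelihood adjusted p = 1.92e-09), by 0.44 in light alone (-0.56 to -0.32, 4.19e-08), by 0.51 in probe alone (-0.63 to -0.39, 9.05e-10) and by 0.45 in DMSO cells (-0.57 to -0.33, 2.70e-08). The change by 12 h lay between -29.8% and -26.4% over the arms. The SEC24D p-values rest on the libraries that chose the gene and are not independent of that choice. SEC24A fell by 0.32 to 0.44 over the same hours, and its largest edgeR quasi-likelihood adjusted p over the arms was 0.000373 in T-REX cells.

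Both SAR1 genes, which supply the initiating GTPase, fell together from 3 to 12 h. SAR1A fell by 0.57 in T-REX, 0.41 in light alone, 0.56 in probe alone and 0.38 in DMSO cells, with an edgeR quasi-likelihood adjusted p of at most 5.96e-07. SAR1B fell by 0.49, 0.61, 0.66 and 0.43 in the same order, with an adjusted p of at most 5.74e-07. For SAR1B this was a drop from group means of 148 to 163 CPM at 3 h to 95.3 to 114 CPM at 12 h. SEC31A rose by 0.16 to 0.17 in each arm, with intervals between 0.08 and 0.25 and an edgeR quasi-likelihood adjusted p of at most 0.00132. The remaining genes passed in some arms only. SEC24B rose in T-REX cells by 0.30 (0.18 to 0.41, edgeR quasi-likelihood adjusted p = 3.84e-05). SEC13 fell by 0.28 in light alone and by 0.33 in DMSO cells, SEC24C fell by 0.22 in probe alone and by 0.24 in DMSO cells, SEC23B fell by 0.14 in T-REX and by 0.18 in probe alone cells, and SEC23A fell by 0.16 in probe alone cells. The SEC13 call in DMSO cells was lost without DMSO replicate 3 of 12 h, at -0.20, and that in light alone cells without light alone replicate 3 of 3 h or replicate 2 of 12 h. The calls in probe alone cells were lost without replicate 2 of 3 h for SEC23A and without replicate 3 of 12 h for SEC23B, and the SEC23B call in T-REX cells was lost in 6 fits that left out 1 T-REX library. Whether the arms differ in these changes was tested through the T-REX effect alone.

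**Figure D5:**
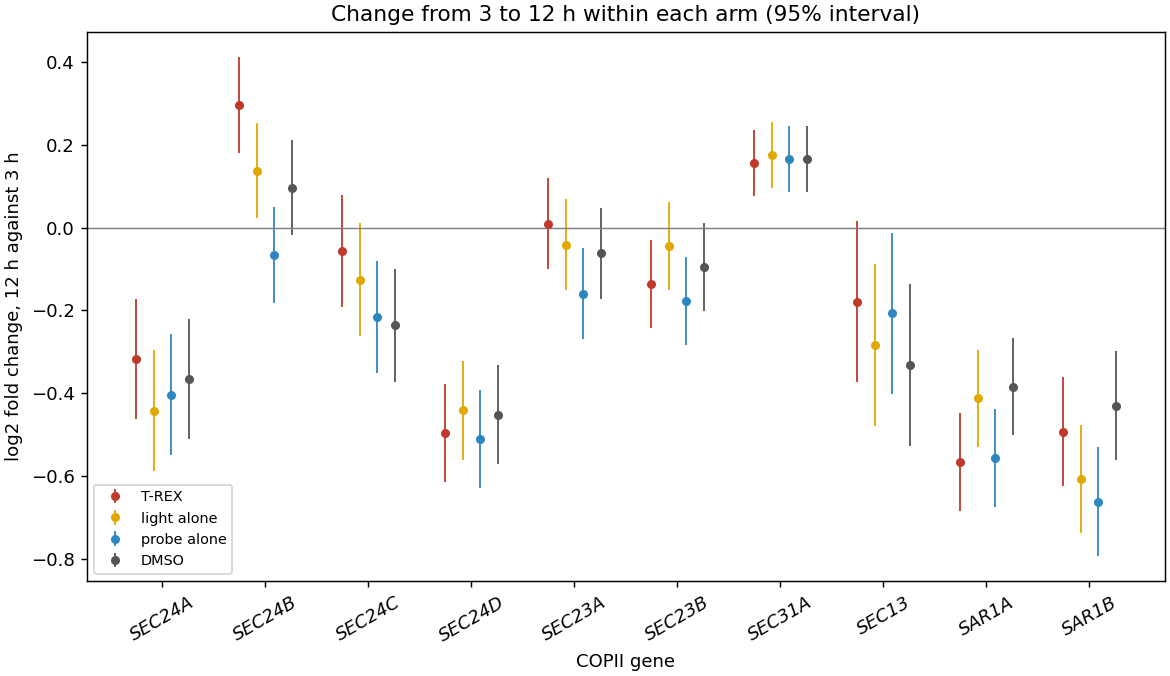
Log2 fold change from 3 to 12 h (vertical axis) for the 10 COPII coat genes (horizontal axis) within each arm, with points for the fitted value and lines for its 95% interval. SEC24A, SEC24D, SAR1A and SAR1B lie below 0 in all 4 arms, at -0.32 or lower, and SEC31A lies above 0 in all 4.

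From 3 to 6 h the calls were fewer, with 4 of 10 genes in T-REX cells (23.3% of all genes), 2 in light alone (25.3%), 3 in probe alone (21.5%) and 4 in DMSO cells (16%). SAR1B was the 1 gene that passed in every arm, falling by 0.26 in T-REX, 0.30 in light alone, 0.35 in probe alone and 0.40 in DMSO cells (edgeR quasi-likelihood adjusted p of at most 0.00221). SEC24D fell by 0.16 in light alone (-0.28 to -0.05, 0.0333), by 0.35 in probe alone (-0.47 to -0.23, 1.63e-05) and by 0.31 in DMSO cells (-0.43 to -0.19, 0.000133), all by edgeR's quasi-likelihood test. In T-REX cells SEC24D changed by -0.08 (-0.19 to 0.04, edgeR quasi-likelihood adjusted p = 0.363). These libraries are those that chose SEC24D, so its p-values here are not independent of that choice. Set side by side, they are no test of a difference between the arms. SAR1A fell in T-REX, probe alone and DMSO cells by 0.21, 0.23 and 0.27. SEC24A fell in DMSO cells by 0.25, while SEC24B rose by 0.18 and SEC23A by 0.20 in T-REX cells. Both calls were lost without T-REX replicate 3 of 3 h, at 0.15 and 0.14, and that of SEC24B also without T-REX replicate 4 of 3 h or replicate 2 of 6 h. The SEC24A call was lost without DMSO replicate 4 of 3 h or replicate 3 of 6 h, and the SEC24D call in light alone cells was lost in 5 fits that left out 1 light alone library.

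The T-REX effect, taken as T-REX minus the mean of the 3 controls on the log2 scale, was compared between time points. None of the other 9 coat genes passed for 6 against 3 h (0.0% of all genes, with 1097 genes at p of 0.05 or less before adjustment), 12 against 3 h (0.116%) or 12 against 6 h (0.0%, with 435 such genes), and DESeq2 called none of the 9 either. At that unadjusted level the 9 genes gave 2, 1 and 0. The nearest was SEC24B, whose effect rose by 0.24 from 3 to 12 h (interval 0.11 to 0.37, edgeR quasi-likelihood adjusted p = 0.103). For SEC24D the effect was larger at 6 h than at 3 h by 0.20 (0.06 to 0.33) and differed by -0.23 at 12 h from 6 h (-0.36 to -0.09). From 3 to 12 h its effect differed by -0.03 (-0.16 to 0.11). These 3 SEC24D values rest on the comparisons that chose it and carry no test.

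Few other listed genes of vesicle transport passed in the T-REX comparisons. Of 32 accessory and exit site genes (PREB, SEC16A, the TANGO1 gene MIA3, cargo receptors of the TMED, LMAN and ERGIC kinds and tethers), 31 were in the tables. Against light alone none passed at 3 h (0.197% of all genes passed), 6 h (0.218%) or 12 h (1.29%). Against probe alone only ERGIC1 did, at 3 h (1.05%), with none at 6 h (0.109%) or 12 h (0.701%). At such shares, few or no calls among 31 genes are also what all genes would give. Against DMSO the calls at 3 h were GOSR2, higher, with TMED2 and ERGIC1, lower (5.99% of all genes passed), at 6 h USO1, higher (0.415%), and at 12 h TMED2 and RAB1B, lower (10.9%). ERGIC1, a membrane protein of the intermediate compartment, was the 1 gene that passed against 2 controls, falling by 0.23 against probe alone (interval -0.34 to -0.12, edgeR quasi-likelihood adjusted p = 0.0405) and by 0.19 against DMSO (-0.30 to -0.08, 0.0378) at 3 h, with -0.03 against light alone. The median log2 difference of the 31 genes lay between -0.08 and 0.03 over the 9 comparisons.

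The COPI coat, which carries proteins back to the endoplasmic reticulum, had 16 of 17 listed genes in the tables. None passed against light alone, probe alone or DMSO at 3 h (0.197%, 1.05% and 5.99% of all genes) or 6 h (0.218%, 0.109% and 0.415%). At 12 h none passed against light alone (1.29%) or probe alone (0.701%). At such shares, no call among 16 genes is also what all genes could give. Against DMSO at 12 h, where 10.9% of all genes passed, COPA was higher by 0.20 and COPZ1, KDELR2 and ARF4 differed by -0.26, -0.27 and -0.26 on the log2 scale. The median log2 difference of the 16 genes lay between -0.07 and 0.07.

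Among the 9 tabulated transcription factors (of 10 listed) of endoplasmic reticulum stress and the CREB3 family, 2 were higher under T-REX than in light alone and DMSO cells at every time point. The calls against light alone, probe alone and DMSO numbered 2, 1 and 2 at 3 h, 2, 0 and 2 at 6 h and 3, 1 and 4 at 12 h, all higher, beside shares of all genes of 0.197%, 1.05% and 5.99% at 3 h, 0.218%, 0.109% and 0.415% at 6 h and 1.29%, 0.701% and 10.9% at 12 h, and the median log2 difference of the 9 genes lay between 0.05 and 0.25. CREB3L2 rose against light alone by 0.42, 0.39 and 0.25 and against DMSO by 0.33, 0.42 and 0.28 at 3, 6 and 12 h (largest edgeR quasi-likelihood adjusted p = 0.0251). Against probe alone the CREB3L2 differences were 0.12, 0.21 and 0.10, none of which passed (edgeR quasi-likelihood adjusted p = 0.191, 0.139 and 0.558). Mean CREB3L2 was highest in T-REX and next highest in probe alone cells at each time point, as was mean SEC24D. XBP1 rose against light alone by 0.41, 0.31 and 0.43 and against DMSO by 0.34, 0.37 and 0.41. Against probe alone XBP1 rose by 0.30 at 3 h and 0.25 at 12 h (edgeR quasi-likelihood adjusted p = 0.0106 and 0.0409), with 0.29 at 6 h (0.0846). ATF4, of the integrated stress response, rose at 12 h against light alone by 0.23 and DMSO by 0.28 (edgeR quasi-likelihood adjusted p = 0.0251 and 0.00129), and CREB3 rose against DMSO at 12 h by 0.42 (0.0375). Among the controls, CREB3L2 fell by 0.30 in light alone against probe alone at 3 h (edgeR quasi-likelihood adjusted p = 0.0100). This list was drawn up with results of these data known and is not independent of them.

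CREB3L2 and XBP1 also had the highest r with SEC24D over all libraries, a measure that includes the T-REX difference for which SEC24D was chosen. Over the 48 libraries, with each time point centred on its own mean, Pearson's r with SEC24D was 0.876 for CREB3L2 and 0.806 for XBP1, the highest of 12427 genes. SLC1A4 (0.772), HRK (0.736), HSPA5 (0.731), PCLO (0.729), SLC7A11 (0.729) and PRDM4 (0.717) came next. SLC1A4 and SLC7A11 are amino acid transporters, HRK is a cell death activator and HSPA5 is the main chaperone of the endoplasmic reticulum. Over the 36 control libraries alone, r was 0.772 for CREB3L2, 0.602 for XBP1, 0.631 for HSPA5 and 0.182 for SLC7A11. The control values kept the centring on all 16 libraries of a time point, T-REX included. These r are therefore not free of the values that chose SEC24D. The libraries share arms and depth, so these are descriptions.

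Within the coat, SEC24C had the highest r with SEC24D over all libraries (0.530), followed by SEC13 (0.436), SEC31A (0.333) and SEC23B (0.210). Over the 36 control libraries, with the same centring that includes T-REX, SEC31A (0.530) stood above SEC24C (0.500), SEC13 (0.305), SEC23A (0.207) and SEC23B (0.0527). Over all libraries SEC23A stood at 0.0652, and SAR1B (-0.159), SEC24A (-0.307), SEC24B (-0.328) and SAR1A (-0.357) were below 0. Over the controls SAR1B (-0.282), SEC24A (-0.247) and SEC24B (-0.230) were again below 0 and SAR1A was not (0.0642). SEC23A, the inner coat partner, ranked 5202 of 12427 genes in likeness to SEC24D. Light alone replicate 3 at 6 h held the lowest SEC24D (54.7 CPM), SEC24C (61.7 CPM) and SEC13 (35.8 CPM) of its group. That library also held the group's highest SEC24A (171 CPM) and SEC24B (197 CPM). Its part in these r was not tested.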

How the data were processed

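RNA from 48 HEK293T libraries was analysed. The authors deposited counts per gene for each time point, unnormalized. They also deposited log2 CPM and a table of log2 CPM with unwanted variation removed, which were not used, and 2 RUV scores per library, used as covariates in an alternative. The labels' processing notes name bcl2fastq and the study's Reporting Summary lists cutadapt, TopHat and Cufflinks. Which of these made the counts, the genome build and the strand setting are not given in the sources used here. All 48 count columns were used and 0 were left out.

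Within each time point, 16 libraries were fitted together with edgeR 4.0.16 in R 4.3.3 (TMM, filterByExpr, robust quasi-likelihood test), and changes over time were fitted on all 48 libraries. The filter removed no gene. Benjamini-Hochberg adjustment ran over all 14685 genes, called at 0.05, and intervals are 95%. DESeq2 1.42.0 was an alternative, with RLE scaling, no filter, a replicate block, RUV covariates (within time points), the 2 arms alone and each library left out in turn. Scripts were tested on simulated data, where changes of 0.3 on the log2 scale, among 200 changed of 14685 genes, were recovered in 25%, 31% and 41% of cases for T-REX against DMSO at 3, 6 and 12 h, and changes of 0.6 in 69%, 80% and 93%.

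The 10 genes and the lists were chosen with earlier results of these data known. All 10 are named. From each list the genes called the same way against 2 or more controls at a time point are named, with counts of 5 or fewer also named, and the 8 genes with a mean of at least 100 counts most like SEC24D by Pearson's r. Replicate libraries differed by more than counting error, and p-values measure the spread between libraries. Lengths are GENCODE 29 exon unions, and symbols came from the current gene name table with GENCODE 29 for identifiers it lacks.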

Additional observations from a re-analysis of the deposited data

Results flagged for a closer look

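Among the coat genes, 8 of 120 groups of 4 libraries held a library far from the other 3 of its group, where chance at about 1 in 20 gives 6. In DMSO cells at 12 h this was replicate 3 for SEC24A (162 CPM, group median 123), SEC24B (214 CPM, median 174) and SEC24C (63.0 CPM, median 76.7). DMSO replicate 3 was also the stray library for SEC23A (174 CPM, median 196) and SEC13 (54.1 CPM, median 51.3) at 3 h and for SAR1B at 6 h (105 CPM, median 119). The others were SEC31A in probe alone replicate 2 at 6 h (302 CPM, median 326) and SAR1A in T-REX replicate 4 at 12 h (126 CPM, median 128). For SAR1A the T-REX group spans so narrow a range that the stray value differs little from the median. No library of SEC24D was stray in any group.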

How the results depend on the processing

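The largest effect of a setting came from the authors' RUV factors as covariates, with which the number of coat genes called at 3 h was 4 for T-REX against light alone, 2 when probe alone was the control and 5 when DMSO was, 3 against light alone and 2 against DMSO at 6 h, and at 12 h 3 against light alone, 3 for probe alone as control and 4 for DMSO. Between controls it was 1, 1 and 8 for probe alone against DMSO, 3, 1 and 3 for light alone against probe alone at 3, 6 and 12 h, and 1 for light alone against DMSO at 6 and at 12 h. With only the 2 arms compared and SEC24D left aside, T-REX at 12 h called SAR1A against light alone and SEC24B against probe alone. Against DMSO at 12 h it called SAR1A, and SEC24C was lost. For light alone against probe alone, the 2-arm fits called SEC24D at 3 h and SAR1B, SEC24B and SEC24D at 12 h. They called no coat gene for probe alone against DMSO at 12 h. DESeq2 gave 1 for T-REX against probe alone and 1 for light alone against probe alone at 3 h. RLE scaling and no filter changed no call. RUV factors were not run over time points. In the main fit, 1 of the 9 genes other than SEC24D passed for T-REX against DMSO at 3 h and 2 at 12 h. None of the 9 passed in the remaining T-REX comparisons. Calls of SEC24D between controls lend it no support, since they rest on libraries that chose it. The share of all genes called under settings other than the main fit is not given. Calls under those settings are therefore not read as a result about the coat. The cause of these shifts was not tested.

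Same-numbered libraries of 2 arms correlated between -0.578 and 0.562 in their deviations, above 0.1 in 25 of 72 pairs. The main fits therefore did not take the numbers to pair samples. For replicate 3 at 3 h, however, all 6 pairs lay above 0.1, from 0.101 to 0.501, which the main fits do not model. With the replicate block, light alone against probe alone at 3 h gave 1 call, SEC24D, and the calls of SEC24C for T-REX against DMSO (0.19) and of SAR1A for probe alone against DMSO (-0.18) at 12 h were lost.

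Leaving out each library in turn, the number of coat genes called for light alone against probe alone ranged from 0 to 1 at 3 h and 0 to 3 at 12 h. For probe alone against DMSO at 12 h it ranged from 1 to 3. For T-REX against probe alone at 12 h and for the T-REX effect at 12 against 3 h it ranged from 0 to 1. From 3 to 6 h it ranged from 2 to 4 in T-REX cells and from 1 to 5 in light alone cells. Ranges of other T-REX comparisons with controls are not given, since these chose SEC24D. The T-REX effect on SEC24D at 12 against 3 h ranged from -0.0752 to 0.00164 and turned sign without T-REX replicate 2 of 3 h (0.00164) or T-REX replicate 3 of 12 h (0.00115). Counts between controls and over time include SEC24D where it was called, and lend it no support. The share of all genes called in each of these fits is not given either. DMSO replicate 3 of 12 h, when left out, added calls in comparisons of other arms. At 786 to 12492 counts per gene and library, replicates differed by more than counting error.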
